A study of Homo sapiens with 2 samples.

Results

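Homologous recombination copies an intact DNA strand to mend a double-strand break, and the Fanconi pathway unhooks DNA strands that have been crosslinked. In the Fanconi pathway a multi-subunit core complex attaches ubiquitin to the FANCD2 and FANCI pair, which then brings nucleases and recombination proteins to the lesion. In recombination, broken ends are first cut back, BRCA2 and PALB2 then act at the resected end, and a group of paralogues, helicases and nucleases carries the strand exchange to its end. Many genes of both pathways are most active in S and G2 phase, when a sister chromatid is present.

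A list of 43 genes of these pathways was followed, matched by gene symbol, and all 43 were found among the 52402 symbols of the count tables. The list covers 8 roles, from the Fanconi core complex to the checkpoint kinases. Membership goes by known function and no expression value enters the rule. The list was, however, chosen with earlier results of these data known. RNA was sequenced in 2 libraries of DLD1, an established human colorectal adenocarcinoma line. One library is labelled HERV-R knockout (KO-labelled below), after a human endogenous retrovirus whose envelope gene the study's title names, and the other is the control, labelled wild type. The labels state transfection with Cas9 and guide RNA vectors and hygromycin selection of colonies for both libraries. The sources used here do not say which vectors the control received or whether either library came from 1 clone.

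There was 1 library per group, so no difference has a replicate check and no p-value is given. The KO-labelled library held 16406308 counts and the control 21881122. Levels are counts per 1000000 of the library total (CPM). Intervals are exact 95% counting intervals (Clopper-Pearson, from the share of both libraries' counts of a gene) of the ratio of CPM, KO-labelled over control, and cover counting error only. ERV3-1, which encodes the HERV-R envelope, had 7.62 CPM in the KO-labelled library and 5.80 CPM in the control (ratio 1.31; 1.02 to 1.69). Its RNA was not lower, though small edits can leave a gene's count unmoved, so each direction below rests on the label. The epithelial markers EPCAM (KO-labelled 749.8 and control 701 CPM) and VIL1 (KO-labelled 175 and control 123 CPM) were high in both libraries. CDX1 and KRT20 had 0 counts in both, while 9 of 12 such markers reached a mean of 1 CPM. The 12 summed to 5980.4 CPM in the KO-labelled library and 11716 CPM in the control (0.510; 0.507 to 0.514). The 3 at least 2-fold lower were KRT8 (KO-labelled 1875 and control 4138 CPM), KRT18 (KO-labelled 1741 and control 4967 CPM) and KRT19 (KO-labelled 273 and control 664 CPM). KRT8 and KRT18 were the most abundant of the 12 in both libraries. The 1 at least 2-fold higher was CDX2 (KO-labelled 298 and control 99.4 CPM). The part of these differences in the results below was not tested. Of 17 listed markers of other tissues TTF1 was set aside after its value was seen, since the symbol belongs to a transcription termination factor and not to the thyroid marker of that name. Of the other 16, 4 reached a mean of 1 CPM, and the 16 summed to 11.7 CPM in the KO-labelled library and 17.5 CPM in the control (0.667; 0.558 to 0.795). With TTF1 the sums were 32.4 CPM in the KO-labelled library and 35.1 CPM in the control. PTPRC, CD3E, CDH5 and ALB had 0 counts in both, and the part of these markers in the results was not tested.

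As a set the repair genes stood higher in the KO-labelled library. Their summed level was 2590.3 CPM there and 1776 CPM in the control, a ratio of 1.46 (1.44 to 1.48). The 42 members with a mean of at least 1 CPM were compared by the log2 ratio with 1 CPM added to both levels. Of these 7 were at least 2-fold higher, against 6.78% of all 12644 genes compared, and 0 were at least 2-fold lower, against 5.69% of all genes. The 7 were XRCC2, BLM, BRCA2, ATRIP, FANCA, ATR and BARD1, and FANCM and XRCC3 lay just under the rule. At 1.5-fold 18 members were higher and 0 lower, against 20.3% and 13.2% of all genes, and at 3-fold 1 was higher and 0 lower, against 0.933% and 1.81%. The median log2 ratio of the members was 0.54, with quartiles of 0.23 and 0.87, against a median of 0.12 and quartiles of -0.28 and 0.50 over all genes.

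The direction was shared by most members, while the size differed widely between them. Of the 42, 39 had a log2 ratio above 0, against 58.1% of all genes, and 35 lay above the median of all genes. The counting interval lay above 1 for 33 members, below 1 for 1 and included 1 for 8, against 44.8% above and 30.5% below over all genes. Under TMM, a scaling by a trimmed mean of gene ratios, every log2 ratio shifts by -0.12. This left 35 members above 0 (50.3% of all genes), 31 with an interval above 1 (37.0% of all genes) and 5 at least 2-fold higher (4.75% of all genes), as ATR (0.95) and BARD1 (0.89) fell under the rule. Over all genes 857 were at least 2-fold higher and 719 lower with library totals, against 601 higher and 879 lower with TMM.

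**Figure D1:**
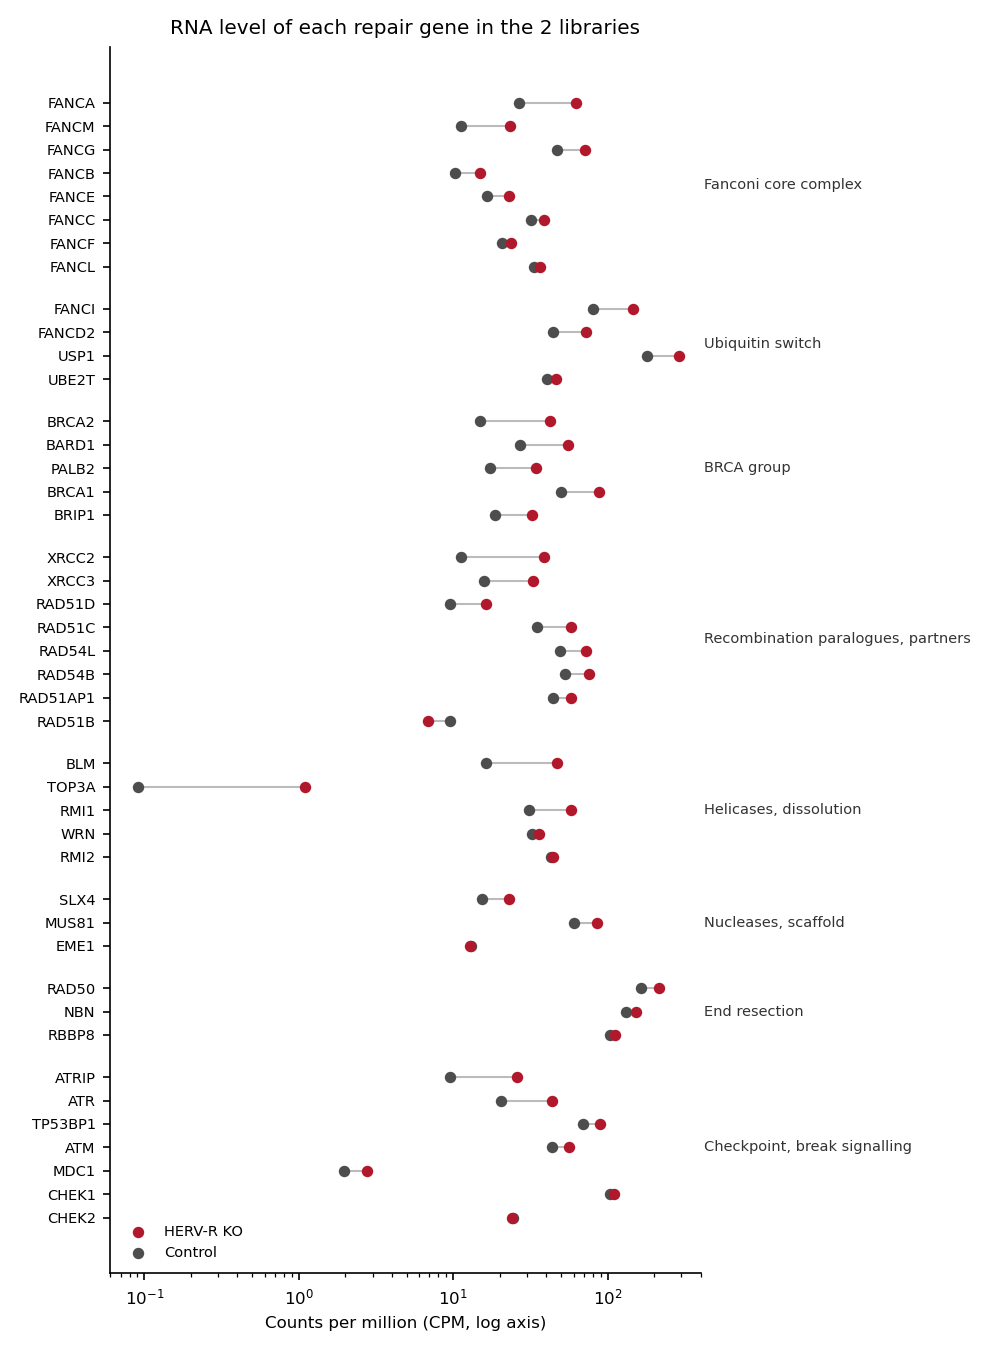
Level of each of the 43 genes in CPM on a log axis, grouped by role, with the KO-labelled library in red and the control in grey. Nearly all red points lie to the right of their grey partners. RAD51B lies the other way, as do CHEK2 and EME1 by a very small margin. TOP3A stands apart at KO-labelled 1.10 and control 0.0914 CPM.

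The promoters of these genes were searched for 2 short words bound by E2F factors, the regulators of S phase genes. The words were TTTCCCGC and TTTGGCGC, on both strands, in the 300 bases from 250 before to 50 after each start in RefSeq (GRCh38.p14), which held 38 members and not FANCI, NBN, RAD54B, RMI2 and WRN. TTTCCCGC was found in 3 of the 38 (7.89%), against 1.98% of 27305 genes, and TTTGGCGC in 0 of the 38, against 0.795%. A gene counted when any of its promoters held the word. The 27305 include genes not compared here, and nothing is read from so few matches. The cell cycle word TTTGAA was found in 6 members (15.8%), ATM, BRIP1, FANCC, MDC1, UBE2T and USP1, against 18.2% of the 27305 genes. The 3 promoters with TTTCCCGC are shown. Each runs from 120 bases before to 30 after the start, read along the gene, with the word or its reverse complement in capitals.
XRCC2 (chr7:152676112-152676261, minus strand): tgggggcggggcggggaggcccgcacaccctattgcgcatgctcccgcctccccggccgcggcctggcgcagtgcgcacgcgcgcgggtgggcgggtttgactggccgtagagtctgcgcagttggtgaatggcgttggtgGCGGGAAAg
FANCD2 (chr3:10026317-10026466, plus strand): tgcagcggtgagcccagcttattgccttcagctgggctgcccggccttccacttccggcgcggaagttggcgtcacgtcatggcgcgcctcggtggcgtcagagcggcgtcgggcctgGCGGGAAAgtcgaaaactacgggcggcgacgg
FANCC (chr9:95317680-95317829, minus strand): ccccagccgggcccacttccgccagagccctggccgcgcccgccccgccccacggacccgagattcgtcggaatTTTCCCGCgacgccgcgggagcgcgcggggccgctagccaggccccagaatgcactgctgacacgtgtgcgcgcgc
The word lies at bases 22 to 29 of XRCC2, counted from the first transcribed base as 1, at -46 to -39 of FANCC, and at -2 to 6 of FANCD2. The log2 ratios of the 3 genes were 1.72, 0.27 and 0.70 for XRCC2, FANCC and FANCD2. The part of the word in these ratios was not tested. A match describes the letters of the promoter and was not tested as a binding site.

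The Fanconi core complex, the ubiquitin ligase of the pathway, had 8 members with a median log2 ratio of 0.47. FANCA, a structural subunit, had 62.2 CPM in the KO-labelled library and 26.8 CPM in the control (ratio 2.32; 2.09 to 2.57). FANCM, the DNA translocase that anchors the complex on chromatin, had 23.4 CPM in the KO-labelled and 11.2 CPM in the control library (2.08; 1.77 to 2.45). These subunits were highest in ratio and neither interval reached 1. FANCG had 70.8 CPM in the KO-labelled library and 47.0 CPM in the control, FANCB 14.8 CPM in the KO-labelled and 10.2 CPM in the control library, and FANCE, which contacts FANCD2, 22.9 CPM in the KO-labelled and 16.5 CPM in the control library. These ratios ran from 1.39 to 1.5. FANCC, which pairs with FANCE, had 38.5 CPM in the KO-labelled library and 31.7 CPM in the control (1.21; 1.09 to 1.35). FANCF had 23.8 CPM in the KO-labelled and 20.8 CPM in the control library (1.15; 0.999 to 1.31), and FANCL, the catalytic RING subunit, 36.3 CPM in the KO-labelled and 33.4 CPM in the control library (1.09; 0.974 to 1.21). The catalytic subunit was thus the closest of the 8 to an equal level, and its interval included 1. FANCA relative to FANCG was 0.62 higher on the log2 scale (counting interval 0.43 to 0.81), so subunits of 1 complex did not share a single ratio.

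The ubiquitin switch on FANCD2 and FANCI is set by the conjugating enzyme UBE2T and reset by the protease USP1. FANCI had 146 CPM in the KO-labelled library and 79.8 CPM in the control (1.83; 1.72 to 1.95), and FANCD2 72.2 CPM in the KO-labelled and 44.1 CPM in the control library (1.64; 1.5 to 1.78). The pair stood close together, with FANCD2 relative to FANCI at -0.16 on the log2 scale (-0.31 to -0.01). USP1, the most abundant member in CPM, had 288 CPM in the KO-labelled library and 179.6 CPM in the control (1.60; 1.54 to 1.67). UBE2T had 46.0 CPM in the KO-labelled and 40.4 CPM in the control library (1.14; 1.03 to 1.26). The removing enzyme was therefore further above the control than the attaching one, with USP1 relative to UBE2T 0.49 higher (0.34 to 0.65). WDR48, the cofactor that activates USP1, is not a member and was chosen after its value was seen. It had 52.2 CPM in the KO-labelled library and 77.4 CPM in the control (0.674; 0.620 to 0.732), opposite in direction to USP1.

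All 5 genes of the BRCA group had intervals above 1, and their median log2 ratio of 0.95 was the highest of the 8 roles. BRCA2, which acts on resected DNA ends, had 42.3 CPM in the KO-labelled library and 14.9 CPM in the control (2.85; 2.49 to 3.26). PALB2, which joins BRCA2 to BRCA1, had 34.2 CPM in the KO-labelled and 17.2 CPM in the control library (1.99; 1.74 to 2.27). BRCA2 relative to PALB2 was 0.52 higher on the log2 scale (0.25 to 0.78). BARD1, the obligate partner of BRCA1 in its ubiquitin ligase, had 55.3 CPM in the KO-labelled library and 26.9 CPM in the control (2.05; 1.85 to 2.28). BRCA1 had 88.0 CPM in the KO-labelled and 49.7 CPM in the control library (1.77; 1.64 to 1.92), and the helicase BRIP1 32.4 CPM in the KO-labelled and 18.6 CPM in the control library (1.74; 1.53 to 1.98). The group as a whole summed to 252 CPM in the KO-labelled library and 127 CPM in the control (1.98; 1.89 to 2.08).

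**Figure D2:**
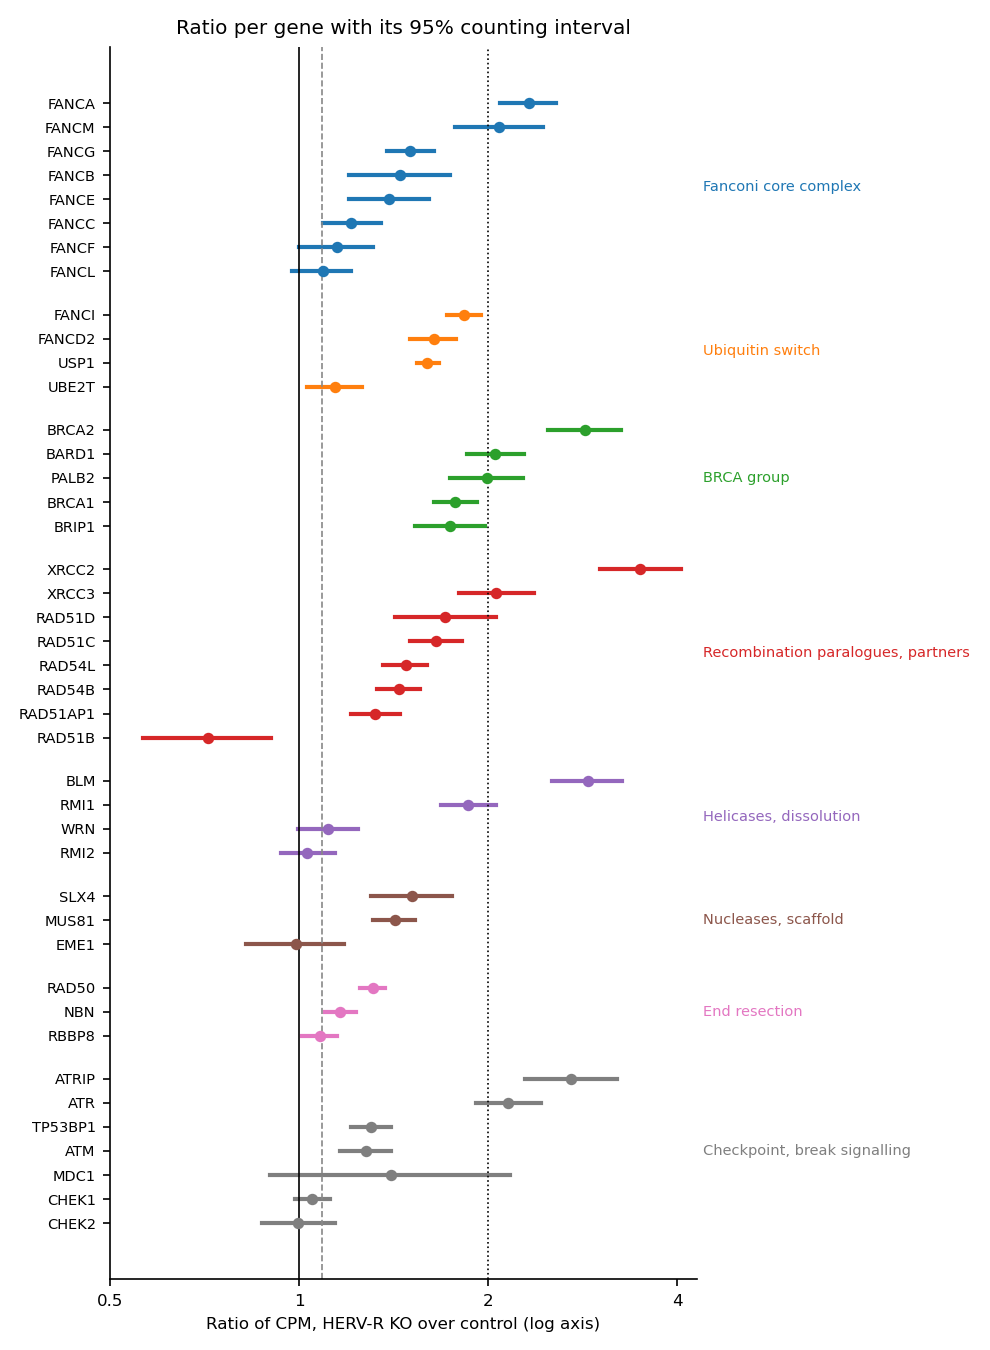
Ratio of CPM, KO-labelled library over control, on a log axis for the 42 genes compared, with bars for the 95% counting interval. The solid line marks 1, the dotted line 2 and the dashed line the median of all genes (0.12 on the log2 scale); XRCC2 is highest at 3.49 and RAD51B lowest at 0.715, within the same role.

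The recombination paralogues XRCC2, XRCC3, RAD51B, RAD51C and RAD51D, which assist strand exchange, held both extremes of the list. XRCC2 (chromosome 7, 152644779 to 152676165, minus strand, GRCh38) had 38.9 CPM in the KO-labelled library and 11.2 CPM in the control (3.49; 3.01 to 4.06). It rested on 639 counts in the KO-labelled library and 244 in the control. RAD51B (chromosome 14, 67819779 to 68730218, plus strand) had 6.83 CPM in the KO-labelled and 9.55 CPM in the control library, on 112 counts in the KO-labelled library and 209 in the control (0.715; 0.563 to 0.903). These genes encode subunits of the same complex, with RAD51C and RAD51D, and were the furthest from the control in opposite directions. RAD51C had 57.5 CPM in the KO-labelled library and 34.9 CPM in the control (1.65; 1.5 to 1.82), and RAD51D 16.2 CPM in the KO-labelled and 9.46 CPM in the control library (1.71; 1.42 to 2.06). XRCC2 relative to RAD51B was 2.29 higher on the log2 scale (1.90 to 2.68), a larger gap than that of RAD51C (1.21) or RAD51D (1.26) relative to RAD51B. Per kilobase of transcript, XRCC2 was 3.11 times RAD51B in the KO-labelled library and 0.637 times RAD51B in the control. Their order turned on that scale only, as by CPM XRCC2 was above RAD51B in both libraries. The lengths are those of annotated transcripts, and the transcripts used in these cells were not measured. XRCC3, which forms another complex with RAD51C, had 32.6 CPM in the KO-labelled and 15.8 CPM in the control library (2.06; 1.80 to 2.37).

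Genes that overlap RAD51D and XRCC3 may bear on their values. The read-through gene RAD51L3-RFFL overlaps 8.01% of the annotated exon sequence of RAD51D on the same strand. It had 1.71 CPM in the KO-labelled library and 7.63 CPM in the control (0.224; 0.144 to 0.335). Summed with it, RAD51D had 17.9 CPM in the KO-labelled and 17.1 CPM in the control library (1.04; 0.894 to 1.22). This sum adds all counts of the read-through gene, also those outside the shared exons. It does not give the value of RAD51D alone. XRCC3 shares 76.7% of its annotated exon sequence with KLC1 on the other strand, which had 69.4 CPM in the KO-labelled library and 77.1 CPM in the control. The libraries mark strand, but the sources used here do not say whether the counting used it. Of the 43 members, 9 share over 10% of their exon sequence with another gene of at least 1 CPM: XRCC3, MUS81, EME1, RAD54B, RAD54L, TP53BP1, FANCL, FANCA and ATRIP. Those past the 2-fold rule were FANCA, with ZNF276 (KO-labelled 20.5 and control 11.4 CPM), and ATRIP, with TREX1 (KO-labelled 6.89 and control 6.08 CPM). ATRIP and TREX1 summed to 32.6 CPM in the KO-labelled library and 15.6 CPM in the control (2.09; 1.82 to 2.40).

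**Figure D3:**
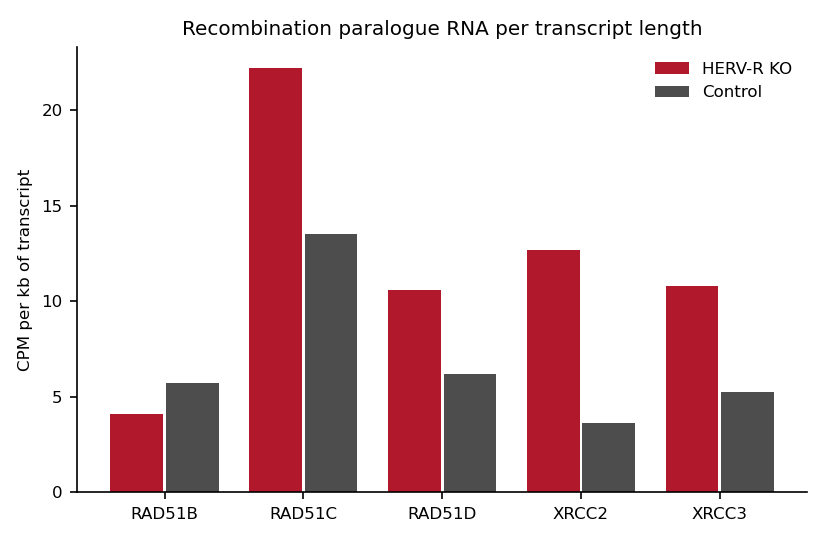
CPM per kilobase of transcript for the 5 recombination paralogues, KO-labelled library in red and control in grey, without error bars since each bar is 1 library. XRCC2 stands at KO-labelled 12.7 and control 3.64, and RAD51B at KO-labelled 4.08 and control 5.71. On this scale RAD51B was the lowest of the 5 in the KO-labelled library and XRCC2 the lowest in the control. By CPM, not divided by length, XRCC2 was above RAD51B in both libraries.

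The partners in strand exchange had smaller ratios, close to one another. The translocase RAD54L had 72.4 CPM in the KO-labelled library and 49.1 CPM in the control (1.48; 1.36 to 1.60), and its relative RAD54B 75.9 CPM in the KO-labelled and 52.6 CPM in the control library (1.44; 1.33 to 1.56). RAD51AP1, which stimulates strand pairing, had 58.0 CPM in the KO-labelled and 43.9 CPM in the control library (1.32; 1.21 to 1.45). Their ratios lay within 1.32 to 1.48. RAD54B shares 59.1% of its annotated exon sequence with FSBP on the same strand (KO-labelled 14.6 and control 10.6 CPM). Summed with FSBP its ratio was 1.43 (1.33 to 1.54). RAD54L shares 25.1% with LRRC41 on the other strand (KO-labelled 91.0 and control 105 CPM). The part of these overlaps in the ratios was not tested.

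Genes that take apart joined DNA molecules were divided. BLM, the helicase of the dissolving complex, had 46.7 CPM in the KO-labelled library and 16.2 CPM in the control (2.88; 2.53 to 3.27). Its scaffold RMI1 had 57.8 CPM in the KO-labelled and 31.1 CPM in the control library (1.86; 1.68 to 2.06), and the small subunit RMI2 44.2 CPM in the KO-labelled and 42.8 CPM in the control library (1.03; 0.936 to 1.14). BLM relative to RMI2 was 1.48 higher on the log2 scale (1.25 to 1.71), so the subunits of this complex spanned much of the range of the whole list. TOP3A, its topoisomerase, had 18 counts in the KO-labelled library and 2 in the control and stayed under the minimum mean. Its symbol stands on 2 rows of the tables, so its value is less certain than its counts. WRN, a helicase related to BLM, had 35.8 CPM in the KO-labelled library and 32.3 CPM in the control (1.11; 0.994 to 1.24).

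The structure-cutting nucleases and their scaffold had 3 members, with log2 ratios from -0.02 to 0.56. SLX4, the scaffold, had 23.1 CPM in the KO-labelled library and 15.3 CPM in the control (1.51; 1.30 to 1.75), and MUS81, the catalytic subunit, 85.2 CPM in the KO-labelled and 60.1 CPM in the control library (1.42; 1.31 to 1.53). EME1, the partner of MUS81, had 12.9 CPM in the KO-labelled and 13.0 CPM in the control library (0.987; 0.822 to 1.18). MUS81 relative to EME1 was 0.52 higher on the log2 scale (0.24 to 0.80). EME1 shares 16.4% of its exon sequence with LRRC59 on the other strand, which had 229 CPM in the KO-labelled library and 274 CPM in the control (0.835; 0.802 to 0.870). MUS81 shares 13.9% of its exon sequence with the abundant CFL1 on the other strand, which had 869.5 CPM in the KO-labelled library and 602 CPM in the control (1.44; 1.41 to 1.48).

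End resection had the lowest summed ratio of the 8 roles, at 1.20 (1.16 to 1.24). RAD50, which tethers broken ends, had 214 CPM in the KO-labelled library and 164 CPM in the control (1.31; 1.25 to 1.37). NBN, its partner, had 152 CPM in the KO-labelled and 131 CPM in the control library (1.16; 1.10 to 1.23), and RBBP8, which starts resection, 111 CPM in the KO-labelled and 103 CPM in the control library (1.08; 1.01 to 1.15). These intervals lay above 1, yet with TMM scaling the log2 ratio of RBBP8 was -0.02. MRE11, the nuclease of the same complex, is not a member and was chosen after its value was seen. It had 72.1 CPM in the KO-labelled library and 35.0 CPM in the control (2.06; 1.88 to 2.26), further above the control than RAD50 or NBN.

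In checkpoint and break signalling ATRIP and ATR stood further above the control than ATM, while CHEK1 and CHEK2 lay near a ratio of 1. ATRIP, which brings the kinase ATR to single-stranded DNA, had 25.7 CPM in the KO-labelled library and 9.51 CPM in the control (2.71; 2.29 to 3.21). ATR had 43.8 CPM in the KO-labelled and 20.3 CPM in the control library (2.15; 1.91 to 2.43). CHEK1, the kinase that ATR activates, had 109 CPM in the KO-labelled and 104 CPM in the control library (1.05; 0.986 to 1.12). ATM, the kinase of double-strand breaks, had 55.8 CPM in the KO-labelled library and 43.7 CPM in the control (1.28; 1.16 to 1.40). CHEK2, which ATM activates, had 24.1 CPM in the KO-labelled and 24.2 CPM in the control library (0.996; 0.872 to 1.14). Both intervals of these effector kinases included 1. TP53BP1, which shields broken ends from resection, had 89.4 CPM in the KO-labelled library and 68.9 CPM in the control (1.30; 1.21 to 1.40). MDC1, a scaffold at breaks, had 2.74 CPM in the KO-labelled and 1.97 CPM in the control library, on 45 KO-labelled and 43 control counts (1.40; 0.898 to 2.17). Its symbol stands on 8 rows, so this value is uncertain too.

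Per kilobase of transcript (longest coding transcript in GENCODE 29), the same 3 genes were highest in both libraries. USP1 (72.0 CPM per kb), CHEK1 (65.3) and UBE2T (50.6) were highest in the KO-labelled library, and CHEK1 (62.2), USP1 (44.9) and UBE2T (44.5) in the control. Apart from TOP3A and MDC1, the lowest in the KO-labelled library were SLX4 (3.16) and FANCM (3.29), and the lowest in the control were BRCA2 (1.24) and FANCM (1.58). Among the 43 genes XRCC2 was in place 18 in the KO-labelled library and place 32 in the control, and RAD51B in place 38 in the KO-labelled library and place 26 in the control. The transcripts used in these cells were not measured, so these levels are approximate.

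The related lists of cell cycle and repair genes also had medians above the 0.12 of all genes. Of 41 genes of replication and S phase, 16 (39.0%) were at least 2-fold higher and 0 lower, against 6.78% and 5.69% of all genes, with a median log2 ratio of 0.88. The polymerase subunit POLA1 (KO-labelled 71.9 and control 18.0 CPM), the ligase LIG1 (KO-labelled 115 and control 37.9 CPM) and the replication factors GINS2 (KO-labelled 58.6 and control 20.7 CPM) and GINS4 (KO-labelled 68.6 and control 25.3 CPM) led that list. Of 32 G2/M genes 3 (9.38%) were at least 2-fold higher and 0 lower, a share near that of all genes, with a median of 0.38. These were the kinetochore genes CENPF (KO-labelled 234 and control 75.3 CPM) and CENPE (KO-labelled 30.0 and control 14.3 CPM) and the spindle gene ASPM (KO-labelled 42.1 and control 18.1 CPM). The counting interval lay above 1 for 22 of the 32, below 1 for 7 and included 1 for 3. Over all genes the shares were 44.8% above and 30.5% below. Of 18 E2F and RB family genes 2 (11.1%, too few to read against the share of all genes) were at least 2-fold higher and 0 lower, E2F7 (KO-labelled 38.2 and control 14.5 CPM) and RBL1 (KO-labelled 39.0 and control 17.5 CPM), with a median of 0.51. With TMM the genes at least 2-fold higher were 12 for replication and S phase, 2 for G2/M and 1 for the E2F and RB family, with 0 lower in each, against 4.75% higher and 6.95% lower of all genes. The share of cells in each phase was not measured, and its part in the level of the repair genes was not tested.

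Of 53 measured genes of recombination and the Fanconi pathway outside the list of 43, 9 were at least 2-fold higher and 0 lower, against 6.78% and 5.69% of all genes, with a median of 0.38. They were led by the resolvase GEN1 (KO-labelled 36.1 and control 7.86 CPM; ratio 4.60; 3.87 to 5.48), the checkpoint mediator CLSPN (KO-labelled 104 and control 40.4 CPM), the deubiquitinase BRCC3 (KO-labelled 92.2 and control 38.5 CPM) and the exonuclease EXO1 (KO-labelled 99.2 and control 42.0 CPM). GEN1 thus stood further above the control than any of the 42 members compared. Of 15 genes of end joining, the pathway that rejoins breaks without a template, 2 (13.3%) were at least 2-fold higher and 0 lower, with a median of 0.60. Against the 6.78% of all genes these are few, and nothing is read from their share. They were PRKDC, its kinase (KO-labelled 369 and control 161 CPM), and RIF1, an effector of TP53BP1 (KO-labelled 152 and control 75.0 CPM, a log2 ratio of 0.89 with TMM). With TMM 4 genes of the wider recombination list and 1 of end joining were at least 2-fold higher, against 4.75% of all genes. The count of the wider list thus fell from 9 to 4, too few to read against the share of all genes. The end joining median of 0.60 was close to the 0.54 of the 42 members and above the 0.38 of the wider recombination list. With 1 library per group no difference between lists could be tested.

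**Figure D4:**
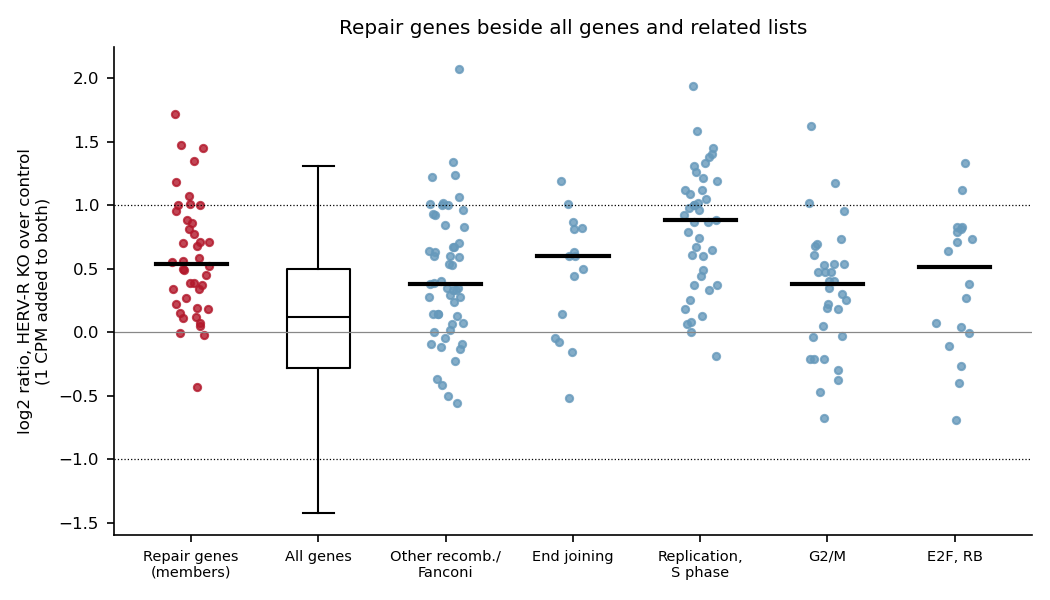
log2 ratio (1 CPM added) of the 42 repair genes, of all 12644 genes (box with quartiles and whiskers over the central 95%) and of the related lists, each point a gene and each bar a median. Dotted lines mark the 2-fold rule; the repair genes have a median of 0.54, all genes 0.12 and the replication genes 0.88.

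The members differ widely in coding length, and the longer ones tended to have the higher ratios. The 15 members of at least 1200 amino acids had a median log2 ratio of 0.77, and 4 of them, BRCA2, ATR, BLM and FANCA, were at least 2-fold higher (26.7%, against 8.60% of all genes of that length). The 9 members under 400 amino acids had a median of 0.39, the 14 from 400 to 800 a median of 0.47, and the 4 from 800 to 1200 a median of 0.51. At least 2-fold higher were 1 of the 9 (11.1%), 2 of the 14 (14.3%) and 0 of the 4. The shares of all genes of those lengths were 5.82%, 6.72% and 7.38%. Over all genes with a coding length the same bands, in the order given, had medians of 0.26, 0.05, 0.13 and 0.16. Spearman's rho between coding length and log2 ratio was 0.32 over the 42 members and 0.11 over 11207 genes, given as a description of genes that share the same 2 libraries. XRCC2, the highest member, has 280 amino acids, and the part of length in the ratios was not tested.

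**Figure D5:**
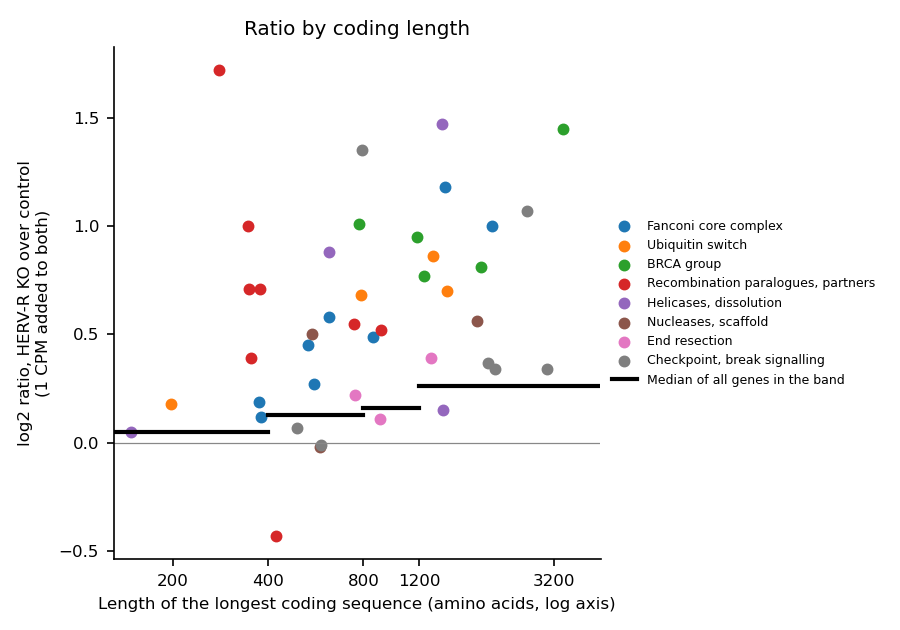
log2 ratio (1 CPM added) of the 42 repair genes against the length of the longest coding sequence in amino acids on a log axis, coloured by role, with black lines for the median of all genes in each of 4 bands of length. Members of at least 1200 amino acids have a median of 0.77, against 0.26 for all genes of that length.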

How the data were processed

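RNA of 1 KO-labelled and 1 control library of DLD1 cells was extracted with Trizol and sequenced from directional libraries, per the labels' protocols. The deposited tables hold raw counts per gene symbol, not normalized. Reads were aligned with TopHat to GRCh38, per the submitters' processing notes. The sources used here do not give the version, the counter, the annotation or the use of strand. Rows of 1 symbol were summed, leaving 52402 symbols from 58173 rows; 41 of the 43 members stand on 1 row.

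Counts were scaled to counts per 1000000 (CPM). The log2 ratio used 1 CPM added to both levels, a gene was compared when its 2 levels averaged 1 CPM or more, and it was counted as higher or lower at a 2-fold difference. Ratios and their exact 95% intervals used CPM with nothing added. Intervals of a difference between 2 genes' log2 ratios used the Poisson error of the 4 counts. A single library per group allows no test. Duplicate reads are not independent molecules, so intervals cover counting error only. The members, roles and related lists were chosen with earlier results of these data known. All members are named. Of each related list, up to 4 genes past the rule in each direction are named, those with the largest log2 ratio. Any other gene named was chosen after its value was seen. Positions, coding lengths and exon overlaps came from GENCODE 29, promoters from RefSeq (GRCh38.p14). Alternatives were other pseudocounts, minimum levels, size rules and scalings (edgeR 4.0.16 for TMM and the upper quartile). Python 3.11.15 and SciPy 1.17.1 were used, and the procedure was tested on simulated counts.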

Additional observations from a re-analysis of the deposited data

How the results depend on the processing

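No paired analysis was possible because there was 1 library per group. The number of members at least 2-fold higher was 7 with a minimum mean of 5 CPM, with no minimum and with single-row symbols only, 9 with a pseudocount of 0.1 CPM, and 5 with a pseudocount of 5 CPM or with TMM, upper quartile or median-ratio scaling. The 5 were among the 7 each time, without ATR and BARD1. The rule of 1.5-fold gave 18 members higher, against 20.3% of all genes, and the rule of 3-fold gave 1. None of these settings put a member at least 2-fold lower. The members' median log2 ratio of 0.54 was 0.48 with a pseudocount of 5 CPM, 0.42 with TMM, 0.40 with the upper quartile and 0.38 with the median of gene ratios; these scalings shift every gene by -0.12, -0.14 and -0.16, and the median of all genes was then 0.00, -0.01 and -0.03. Of 42 members 34 were above 0 with the median of gene ratios, against 47.9% of all genes.

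Over all genes a pseudocount of 5 CPM gave 426 higher and 371 lower, the median of gene ratios 544 higher and 945 lower, the rule of 1.5-fold 2567 and 1674, and the rule of 3-fold 118 and 229. There were 398 values of single named genes under the pseudocount, minimum and scaling alternatives. Of these, 344 moved by less than the distance from the middle of their log2 counting interval to its end. Some members near 0 changed sign. With TMM the log2 ratio of RMI2 went from 0.05 to -0.07 and that of CHEK1 from 0.07 to -0.05. The differences of FANCL, CHEK1, CHEK2, EME1, RMI2, WRN, FANCF and MDC1 lay within counting error, as their intervals included 1. With 1 library per group, an interval away from 1 is not a replicated difference either.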
